A study of Mus musculus with 20 samples.

Results

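Mettl3 deletion in thymic invariant natural killer T (iNKT) cells is described here through 12542 regions of N6-methyladenosine (m6A) enrichment, called peaks. They are all the regions that the authors' deposited table lists for iNKT cells, with regions repeated at the same coordinates kept once, which removed 24 rows. They make up 12542 of the 25992 peaks of the series, and the other 13450 come from CD4 and CD8 double-positive (DP) thymocytes. The peaks carry the names of 6774 genes and lie on 21 chromosomes, the mitochondrial genome included. The comparison set Mettl3fl/flCD4-cre cells against WT cells, both from C57BL/6 mice aged 6 to 8 weeks. Both were sorted from thymus as 7AAD- CD1d-Tet+ TCRbeta+ cells. Each genotype had 3 input libraries and 3 m6A immunoprecipitation libraries, which makes 12 of the 20 libraries of the series.

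The Cre recombinase is driven by Cd4 control sequences, which are active from the DP stage, so the floxed allele can be lost before a cell becomes an iNKT cell. Nothing in the labels says whether animals were pooled or whether the replicates were separate mice. Polyadenylated RNA was broken into fragments of about 150 nt. The labels name both m6A-seq and a low-input form based on LACE-seq, and do not say which was used for which cell type. Mettl3 had 0 peaks in the iNKT table, so the deletion itself could not be checked there.

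METTL3 is the catalytic subunit of the complex that writes m6A on nascent messenger RNA, and METTL14, WTAP, VIRMA, ZC3H13, RBM15 and CBLL1 are its partners. The mark is known to gather in long internal exons and around stop codons and 3' UTRs, mostly within GGAC-like letters, and YTH-domain proteins read it to set splicing, export, translation and decay. Antibodies against m6A also bind the m6Am beside the cap, which PCIF1 writes, and the m6A of ribosomal RNA, which other enzymes write. Which of these marks a peak held was not tested. The iNKT cells are T cells with an invariant receptor for lipids on CD1d, and the transcription factor PLZF, encoded by Zbtb16, directs their effector programme.

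The values are the authors' own. Each peak has a fold enrichment of immunoprecipitate over input, a p-value for the peak, and the difference in methylation between genotypes as a log2 fold change with its false discovery rate (FDR). The authors' deposited table holds no value per library, so the spread over replicates and the depth are unknown. Which genotype a negative sign favours is not stated. The authors' list of 5340 iNKT genes holds 5339 of the 5343 genes with a negative peak and 0 of the 1431 genes without one, so the list selects on a negative sign. If it lists genes that lost methylation with the writer, which no label states, negative means lower in Mettl3-deleted cells. Lower and higher below have this likely meaning, and every direction rests on that assumption. A peak passed at an FDR of 0.05. In sorted bulk cells a change of m6A within cells and a change in the mix of iNKT stages cannot be told apart.

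Sequence letters were at hand for the annotated starts of genes, from RefSeq on GRCm38.p6, the assembly behind mm10. Over the first 50 nt after a start, 490 peaks covered every base. The letters GGAC followed by A, C or T, which are forms of the known m6A context, were searched there on the sense strand alone. They were present under 15 of 65 lower peaks (23.1%), 5 of 39 higher peaks (12.8%) and 57 of 386 peaks that did not pass (14.8%). Of 32851 annotated starts, 5074 (15.4%) held them. With peaks that covered only 1 base or more, the shares drew together at 18.7%, 15.5% and 15.8%, so the excess under lower peaks rested on the choice of full cover. A match is a description of letters and not a mapped site. The runs below show such starts, with the match in capitals, for 4 lower peaks and 2 higher peaks.
Ube2k, chr5:65537265-65537294, plus strand: tggtgcgcatgcgcGGACCcggcgccattt
Syncrip, chr9:88482358-88482387, minus strand: cgaaggctgagaGGACAgggcggctagcgg
Fosb, chr7:19310000-19310029, minus strand: cggctacgccggGGACAcgcggagccgggg
Dusp1, chr17:26508443-26508472, minus strand: agtgaaGGACTggcgggaggaaagcgcggt
Egln2, chr7:27165679-27165708, minus strand: tcaagctcctagagacaactgtGGACTtgg
Vim, chr2:13574318-13574347, plus strand: actcttgctccgGGACCccagagaccccag
In the authors' deposited table the peak over the start of Ube2k, a ubiquitin-conjugating enzyme gene, fell by 6.89 on the log2 scale (FDR 1.3e-30). That of Syncrip, an RNA-binding protein gene, fell by 5.35 (FDR 3.5e-08 in the authors' deposited table). The start peaks of Fosb, an AP-1 subunit gene, and Dusp1, a MAP kinase phosphatase gene, had -2.86 (FDR 3.6e-07) and -0.995 (FDR 5.4e-06) in the authors' deposited table, both passing. Egln2, a prolyl hydroxylase gene, and Vim, the vimentin gene, rose by 4.0 (FDR 1.8e-08) and 1.87 (FDR 0.0032) in the authors' deposited table.

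Across the iNKT transcriptome, lower peaks outnumbered higher ones. Of 12542 peaks, 2488 were lower (19.8%) and 733 higher (5.84%), 25.7% together. The lower set was made of stronger and longer peaks than the higher set. Lower peaks had a median fold enrichment of 10.9 over 271 nt of exon, and higher peaks 5.04 over 179 nt. Peaks that did not pass had 8.12 and 151 nt, and their median log2 fold change was still below 0, at -0.60. Of those, 65.6% were negative.

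The share of lower peaks went with the strength of a peak, measured by the p-value that the authors' deposited table gives for the peak itself. Among the 714 strongest peaks, with p at or below 1e-1000, 90.2% were lower and 3.22% higher, with a median log2 fold change of -4.0. The share of lower peaks was 73.1% in the next bin down to 1e-300, then 45.1%, 25%, 10.8%, 3.53% and 0.581%. In the weakest bin, p above 1e-05, it was 0.0507% (1 of 1971 peaks). The share of higher peaks stayed between 2.54% and 7.68% in all 8 bins. Higher peaks were therefore more frequent than lower peaks in the 3 weakest bins. Of 733 higher peaks, 268 had a peak p above 1e-10, as had 16 of 2488 lower peaks. How well the size of a change was measured in such peaks is unknown. Both p-values come from the same libraries, so strength and the chance to pass are not independent measures.

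**Figure D1:**
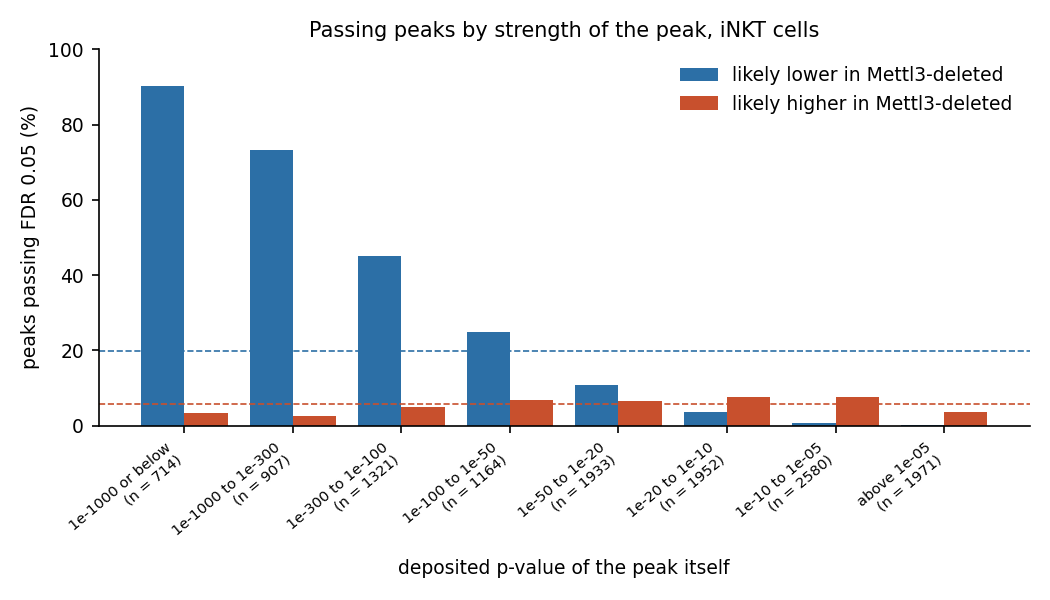
Percentage of iNKT peaks passing an FDR of 0.05 (y axis), lower in blue and higher in orange, by the deposited p-value of the peak itself (x axis, strongest at the left, with the number of peaks). Dashed lines give the shares over all peaks, 19.8% and 5.84%. The lower share goes from 90.2% to 0.0507%, while the higher share stays between 2.54% and 7.68%.

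Longer peaks were lower more often. The lower share was 2.55% up to 100 nt of exon, 28.3% above 200 and up to 300 nt and 70.1% above 500 nt, while the higher share went from 6.36% to 3.20%. Within peaks of middle strength (p from 1e-100 to 1e-10) the lower share was between 9.71% and 13.5% in all 6 length bins, with no order by length. Spliced peaks, those with more than 1 exonic block, made up 15.2% of the set. Their lower share was 28.7% with 2 blocks, 49.8% with 3 and 70.7% with 4 or more, against 17.3% with 1. The difference was present within strata of strength. Among strong peaks (p at or below 1e-100) 73.6% of spliced and 62.0% of unspliced peaks were lower, and at middle strength 18.5% and 9.96%. Spliced peaks were also more often higher, with 4.98% against 3.41% of strong, 11.3% against 6.24% of middle and 14.2% against 4.97% of weak peaks (p above 1e-10).

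Fold enrichment followed another course than the peak p-value. The lower share was 26.4% for peaks enriched up to 2-fold, 15.5% from 4- to 8-fold and 35.5% above 64-fold. The higher share went from 10.5% to 1.96% over the same range. The peaks with the largest enrichment included genes of signalling, transcription and the cell cycle. Coro1a, which encodes an actin regulator of lymphocytes, had the largest fold enrichment of the authors' deposited table (8140), and its log2 fold change of -1.04 did not pass (FDR 0.44). A 389 nt peak in the 3' UTR class of Hras, the small GTPase gene (chr7:141190867-141191255, minus strand, mm10), had a fold enrichment of 3040 in the authors' deposited table and fell by 5.52 (FDR 2e-21). Sub1, a transcription coactivator gene, fell by 5.90 (FDR 2.6e-06, fold enrichment 2690 in the authors' deposited table). Ccnd2, the cyclin D2 gene, fell by 3.88 in its 5' UTR class (FDR 0.00036, fold enrichment 2040 in the authors' deposited table). The only one of the 10 largest that rose was a 180 nt peak named C1ql3, which overlaps no RefSeq gene (8.97, FDR 0.0014 in the authors' deposited table).

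Some strong peaks sat at 0. The 8 strongest peaks with an absolute log2 fold change under 0.1 had FDRs of 0.69 to 0.76 in the authors' deposited table. They included transcription factors of lymphocytes. Id3, which encodes an inhibitor of E proteins, had a 359 nt peak in its 3' UTR class with a fold enrichment of 59.5 and a change of 0.03 (log2) by the authors' deposited table. Irf2, an interferon regulatory factor gene, had -0.07 in the authors' deposited table. Nfatc2, a calcineurin target in T cells, had -0.03, and Zfpm1, a GATA cofactor gene, 0.01, in the authors' deposited table. These values give no interval, so they do not show that the peaks were the same in both genotypes.

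Position in the transcript went with how often peaks were lower or higher. Internal exons held 18.8% of all peaks, 26.9% of lower peaks and 22.9% of higher peaks, so their share was larger in both directions. The 3' UTR class held 45.2% of all peaks, 50.6% of lower peaks and 40.1% of higher peaks. The 5' UTR class held 14.7% of all peaks, 10.2% of lower peaks and 20.7% of higher peaks. Within a class, 28.4% of 2353 internal exon peaks were lower and 7.14% higher. In the 3' UTR class 22.2% of 5673 were lower and 5.18% higher, and in the 5' UTR class 13.8% of 1843 and 8.25%. Last exons (14.9% of 1314 lower, 4.03% higher) and first exons (13.8% of 477, 5.03%) were near the 5' UTR class in their lower share. Of the 6 exon and UTR classes, the single exon class had the smallest share of lower peaks (5.18% of 850, with 4.47% higher), at a median fold enrichment of 16.9.

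Internal exons, the 3' UTR class and the 5' UTR class kept this order among strong and among middle peaks. These bins are wide: inside the strong one the lower share ran from 45.1% to 90.2% by peak p-value. What part strength has in the order was therefore not tested. Among strong peaks, 74.0% of internal exon peaks were lower, 67.1% in the 3' UTR class and 49.2% in the 5' UTR class, against 64.7% of all strong peaks. At middle strength the shares were 18.1%, 9.87% and 7.85%, against 11.3%. There the 5' UTR class was the one with more higher than lower peaks, 10.8% against 7.85%. Strong peaks in single exons were higher in 19.4% of 72, against 3.77% of all strong peaks, and these included the ribosomal RNA peaks described further on. The classes are those of the authors' annotation. Of the peaks in the 3' UTR class, 33.8% did not overlap the RefSeq gene they are named after, against 4.56% in the 5' UTR class.

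**Figure D2:**
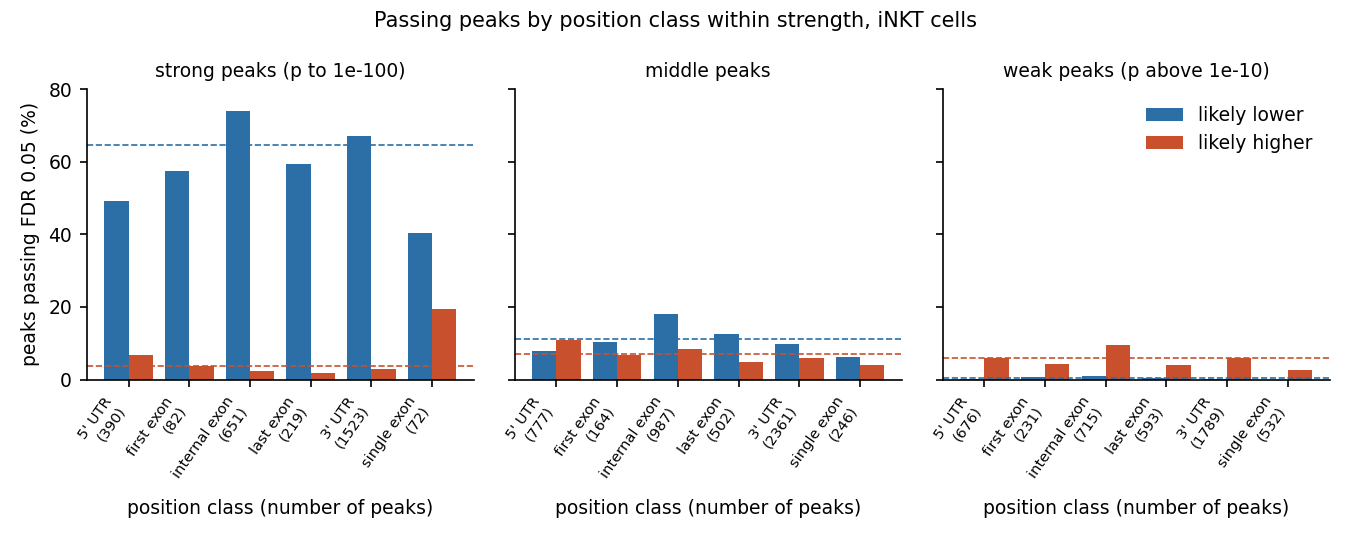
Percentage of iNKT peaks passing an FDR of 0.05 (y axis), lower in blue and higher in orange, by position class (x axis, number of peaks in brackets) for strong, middle and weak peaks. Dashed lines give the shares of all peaks of that strength. Internal exons stand above the lower line among strong (74.0% against 64.7%) and middle peaks (18.1% against 11.3%), and the 5' UTR class stands below it.

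The peaks of smallest FDR in each class are examples and do not account for these shares. A group of 21 peaks reached the lowest log10 FDR of the authors' deposited table, -434, and 12 of them were lower and 9 higher. In the 3' UTR class this group included Jund, an AP-1 subunit gene, over 686 nt (-3.18 in the authors' deposited table, fold enrichment 45.1). A lower peak of 301 nt named Snord82 overlaps Ncl, the gene of the nucleolar protein nucleolin (-4.55 in the authors' deposited table). Hsp90ab1, a chaperone gene, had -3.03 over 301 nt of exon 6 and -2.71 over 210 nt of exon 9, both lower, by the authors' deposited table. In the 5' UTR class the chromatin remodeller gene Chd3 fell by 5.63, the corepressor subunit gene Gps2 fell by 6.87 and the chromatin protein gene Dek fell by 4.58, as the authors' deposited table gives them. In the last exon class a peak named 0610040F04Rik, which lies in the transcription factor gene Bhlhe40, fell by 5.52 (FDR 1e-118 in the authors' deposited table). A peak named Usf1, which lies in Arhgap30, fell by 5.09 (FDR 1e-157 in the authors' deposited table). The single exon class was led by Malat1, a long nuclear RNA, for which the authors' deposited table gives lower peaks at -2.28 and -3.26.

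Higher peaks with small FDRs differed widely in length and enrichment. Of the 9 at the lowest log10 FDR, -434, the 5' UTR peak of Eef2, an elongation factor gene, rose by 6.46 in the authors' deposited table. It had 181 nt and a fold enrichment of 1.53 there. The other examples in this paragraph have larger FDRs. A 61 nt peak named Skp1 (chr11:52252967-52253027, minus strand, mm10) lies in Tcf7, which encodes the T cell factor TCF1, and rose by 7.94 (FDR 1e-123, fold enrichment 1.55 in the authors' deposited table). One of 121 nt in Ctsa, a lysosomal protease gene, rose by 8.56 (FDR 1e-109, fold enrichment 1.60 in the authors' deposited table). Longer peaks were also found. A 448 nt peak named P2rx1 lies in the calcium pump gene Atp2a3 and rose by 3.96 (FDR 1e-188, fold enrichment 10.3 in the authors' deposited table). Eif1, a gene of start codon selection, rose by 3.97 over 241 nt of its 5' UTR class (FDR 1e-242, fold enrichment 5.96 in the authors' deposited table). Prrc2a, an m6A reader gene, had a higher internal exon peak of 4.29 (FDR 1e-103) beside lower ones of -4.78, -4.11, -3.15 and -1.95 in the authors' deposited table.

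Of 2262 genes with a passing peak, 93 had one in both UTR classes. In these 93 a passing 5' UTR peak and a passing 3' UTR peak carried the same gene name, whatever their strands, which gave 126 pairs. In 77 pairs (58 genes) both were lower. In 34 pairs (25 genes) the 5' peak was higher and the 3' peak lower, and in 7 pairs (7 genes) it was the other way round. In 8 pairs (7 genes) both were higher. Both peaks lay within the named gene in 107 pairs, where these counts were 63, 30, 7 and 7. Over all genes, passing peaks of the 5' UTR class were 254 lower and 152 higher, and those of the 3' UTR class 1258 and 294. A higher 5' peak with a lower 3' peak is therefore the more frequent mixed pair for unrelated peaks too. The selection of passing peaks gives no test of these counts.

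**Figure D3:**
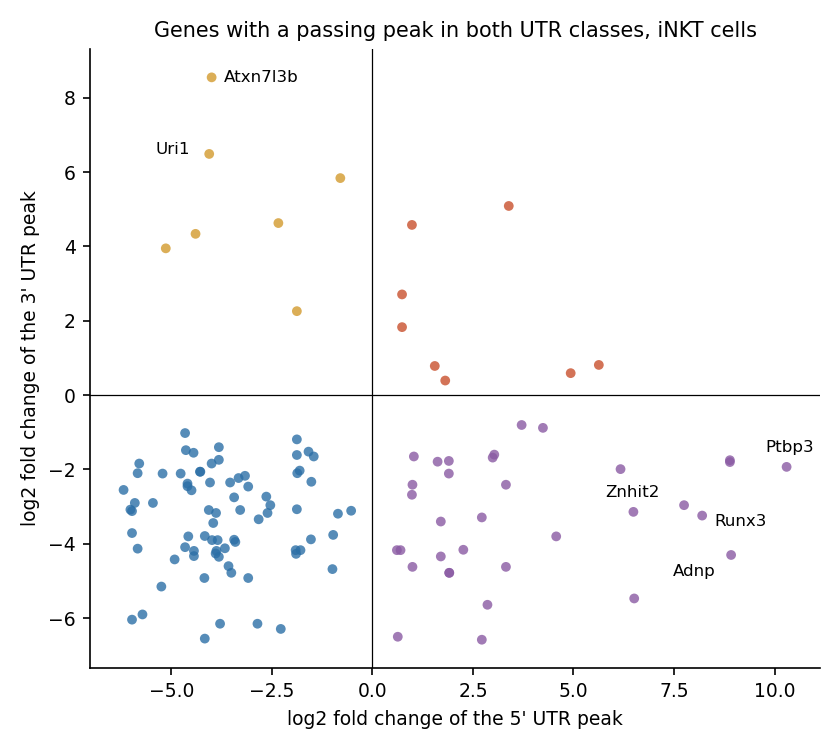
Log2 fold change, from the authors' deposited table, of a passing 3' UTR peak (y axis) against that of a passing 5' UTR peak (x axis) of the same gene name, 1 point for each of 126 pairs. The lower left field holds 77 pairs, the lower right field (5' higher, 3' lower) 34, the upper left field 7 and the upper right field 8.

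The 8 names with the widest gaps between ends of opposite sign were of varied function. Ptbp3, a splicing regulator gene, rose by 10.3 at its 5' end (FDR 6.3e-71) and fell by 1.93 at its 3' end (FDR 0.025) in the authors' deposited table. Adnp, a chromatin-bound homeobox gene, rose by 8.92 (FDR 2.5e-21) and fell by 4.30 (FDR 6.3e-16) in the authors' deposited table. Runx3, which encodes a transcription factor of cytotoxic and innate-like T cells, rose by 8.20 over 91 nt at its 5' end (FDR 1e-17) and fell by 3.24 over 959 nt at its 3' end (FDR 5e-22) in the authors' deposited table. These peaks lie at chr4:135152703-135152793 and chr4:135175564-135176522 on the plus strand of mm10. The enrichments of the paired peaks were unequal. The 5' peak of Runx3 had a fold enrichment of 5.25 and its 3' peak 28.8 in the authors' deposited table, and for Adnp the values were 4.98 and 18.6. Znhit2 rose by 7.75 and fell by 2.96, and a peak named Mir5130, which lies in Kctd12, rose by 8.89 while the 3' one on its strand fell by 1.75, in the authors' deposited table. The reverse order was seen in Atxn7l3b, with -4.0 at the 5' end and 8.55 at the 3' end, and in Uri1, for which the authors' deposited table gives -4.06 and 6.49. The 3' peak of Atxn7l3b was weak (log10 peak p -5.81 in the authors' deposited table). Rpp21, also among the 8, had 6.51 and -5.47 in the authors' deposited table, but its 3' peak lies in its neighbour Trim39. In Il2rb, which encodes the interleukin-2 and -15 receptor beta chain, the ends had 3.03 and -1.60, and in the immediate early gene Fos 2.26 and -4.16, in the authors' deposited table.

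Genes with several peaks were common. Of 6774 genes, 3748 had 1 peak, 1659 had 2, 715 had 3 and 1 gene, Spen, had 18. At least 1 lower peak was found in 1775 genes (26.2%) and at least 1 higher peak in 653 (9.64%). The share with a lower peak went from 14.8% of genes with 1 peak through 29.4%, 43.6%, 59.0%, 61.3% and 74.4% to 81.8% of the 77 genes with 7 or more. More peaks give more chances to pass. The share of single peaks that were lower also went up, from 14.8% to 32% with 6 peaks and 29.8% with 7 or more. The share that were higher stayed between 4.63% and 6.33%.

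When several peaks of a gene passed, most genes had peaks of 1 sign. Over all genes 77.2% of passing peaks were lower, so a shared sign is frequent for unrelated peaks too. Of 623 genes with 2 or more passing peaks, 417 (66.9%) had only lower ones, 40 (6.42%) only higher ones and 166 (26.6%) both. With 3 or more passing peaks the counts were 119, 4 and 75 of 198 genes. With overlapping peaks of either strand counted once, 553 genes had 2 or more passing peaks, and 164 of them had both signs. Whether peaks of 1 gene shared a sign more often than other peaks was not tested. In 159 genes with 2 or more peaks every peak was lower. Within the 1367 genes with 3 or more peaks, the strongest peak was lower in 47.4% of genes, and 16.5% of their other peaks were. The strongest peak was picked by the peak p-value, which is not independent of the chance to pass. By place along the transcript the shares were closer together, and neither contrast was tested. In 944 of these genes with all peaks on 1 strand, the 5'-most peak was lower in 21.7%, the 3'-most in 25.3%, and 27.9% of those between were.

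The 10 gene names with most peaks had 11 to 18 each. Spen, which encodes a corepressor of Notch signalling and of X inactivation, had 7 lower peaks among its 18, from -4.92 to -2.19 in the authors' deposited table, and 0 higher. Of these 7, 6 lay in exon 11 of 15 and the deepest in the 3' UTR class. Kmt2d, a histone H3 lysine 4 methyltransferase gene, had 7 lower peaks and 1 higher among 11. Its deepest, 721 nt in exon 35 of 55 (chr15:98850301-98851021, minus strand, mm10), had -7.74 in the authors' deposited table (FDR 1.6e-23), and the higher one, in exon 49, had 1.51 (FDR 0.0023). Ankrd11, a regulator of histone acetylation, had 6 lower peaks among 11, from -5.13 to -2.71 in the authors' deposited table. Plec, the cytoskeletal linker plectin, had 6 among 14, from -3.16 to -1.78 in the authors' deposited table, and the one of -2.86 lies in its neighbour Parp10. Bcl9l, a cofactor of beta-catenin, had 3 lower peaks among 13, with -7.35 (FDR 1e-53) in exon 6 of 8 the deepest in the authors' deposited table. Prr12 had 3 lower peaks among 11, and Ntrk3 had 11 peaks of which none passed.

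Other genes were lower along their whole length. In Prrc2c, an RNA-binding protein gene of stress granules, 7 of 8 peaks were lower, from the exon 4 peak (-3.0) to the 3' UTR class (-3.56) in the authors' deposited table. Its strongest call, over 511 nt from exon 12 of 35 (chr1:162709680-162710786, minus strand, mm10), had -4.55 (FDR 1e-234 in the authors' deposited table). Phf12, a corepressor subunit gene, had all 6 peaks lower, from -4.04 in the 5' UTR class to -2.35 in the 3' UTR class in the authors' deposited table. All 6 peaks of Kri1, a ribosome assembly gene, were lower, down to -6.62 in exon 11 of 19 in the authors' deposited table, and 4 of them were entries on both strands in the 3' UTR class. Atn1, the corepressor gene atrophin 1, also had 6 lower peaks, but these were 3 sites listed more than 1 time with nearly equal values. Of 8 peaks named Rbm15b, 7 were lower, and 4 of the 8 lay within Rbm15b itself, which encodes a subunit of the m6A writer complex.

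Peaks of both signs within 1 gene were seen in regulators of splicing and transcription. Hnrnpd, which encodes the mRNA decay factor AUF1, had all 5 peaks passing, with -4.17 in the 3' UTR class, -1.91 and -1.79 at one 5' place and 0.61 and 0.70 at another in the authors' deposited table. Acin1, a splicing-coupled gene, had 5 lower peaks down to -5.0 and a higher one of 4.02 in exon 6 of 19, where a lower peak of -3.89 also lay, in the authors' deposited table. Ep300, a histone acetyltransferase gene, had lower values of -5.25, -4.08, -3.89 and -3.44 and a higher one of 1.80 in the authors' deposited table. The higher Ep300 peak and the peak of -4.08 share its last exon. Tnrc18 had 5 lower and 2 higher peaks, and Lrp10 had 4 and 1. The higher Lrp10 peak is listed on the minus strand, and all its other peaks on the plus strand. Xist, the RNA of X inactivation, had 4 lower and 2 higher peaks among 11. In the authors' deposited table the lower Xist peaks lay between -4.67 and -4.18 and the higher ones had 7.78 (61 nt in exon 1) and 1.65. Xist overlaps its antisense partner Tsix, so the strand of origin is uncertain.

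**Figure D4:**
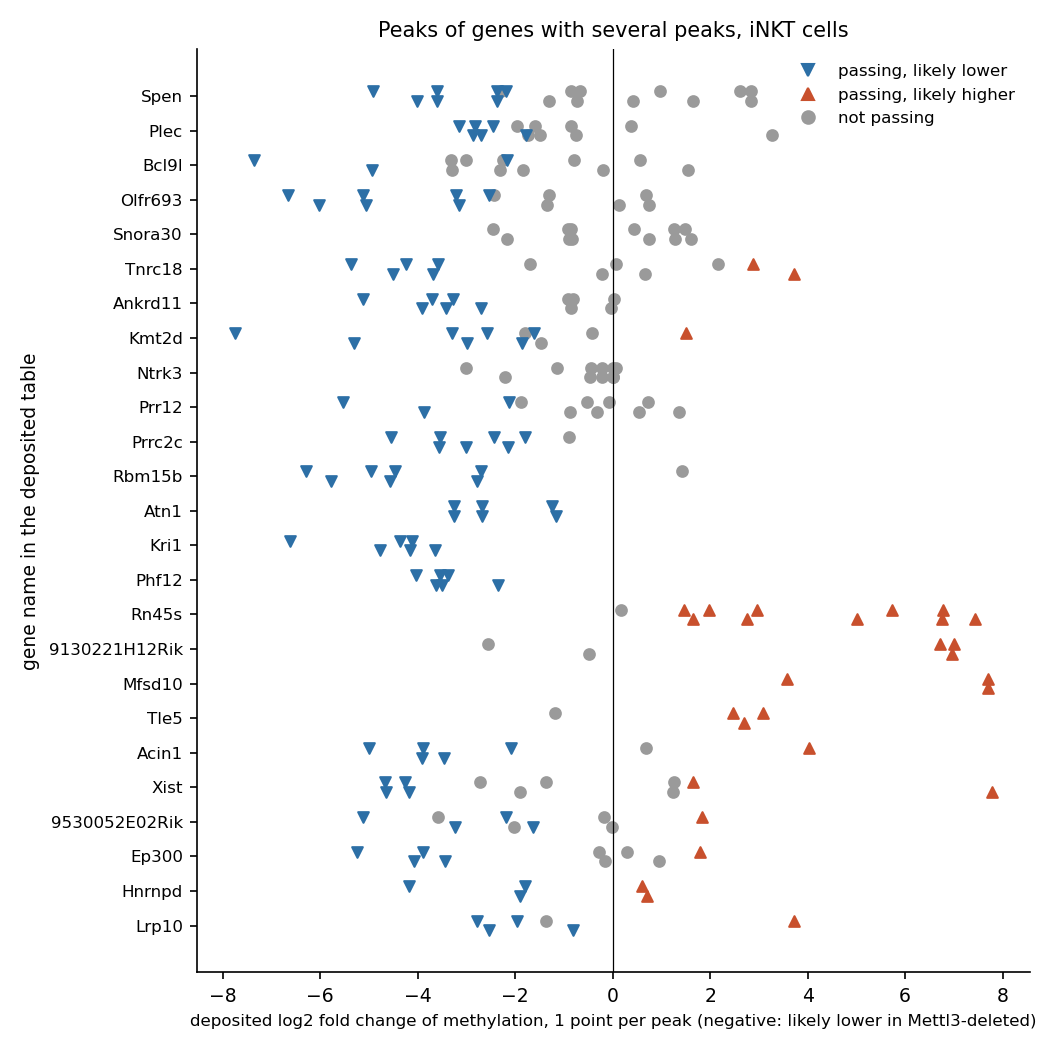
Log2 fold change from the authors' deposited table (x axis, negative is likely lower in Mettl3-deleted cells) of every peak of genes with several peaks (y axis, deposited names). Blue triangles are passing lower peaks, orange triangles passing higher peaks and grey points peaks that did not pass. Spen has 7 blue triangles of 18 peaks, Kri1 and Phf12 have 6 of 6, and Rn45s has 10 orange triangles of 11.

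Gene names and counts of peaks need care in this table. Of all peaks, 3168 (25.3%) did not overlap the RefSeq gene they are named after, and 292 overlapped no RefSeq gene. All 13 peaks named Olfr693, an odorant receptor, lie in Gm8995 or Gm1966, and all 12 peaks named Snora30 lie in Srcap, a chromatin remodeller gene. Some sites are listed more than once. On the same strand 278 pairs of peaks overlapped, 263 with the same call and 1 with opposite calls, and their log2 fold changes differed by a median of 0.12. On opposite strands 378 pairs overlapped, 337 with the same call and 0 with opposite calls. With overlapping peaks of either strand counted once, 11927 peaks remained, of which 2370 were lower and 699 higher.

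Gene families, grouped by symbol, differed in how many members carried a passing peak. Of 50 families with 10 or more genes, 32 had a larger share of genes with a lower peak than the 26.2% of all genes, and 8 reached 50% or more. The median log2 fold change was below 0 in 47. Families also differed in peaks per gene (1.85 over all genes) and in the share of strong peaks (23.5% over all peaks). Those values are given beside the families that lead, and their part in the counts was not tested. Symbols caught by a pattern can belong elsewhere, such as Cdc42se1 among the cyclins. The families were chosen with results of these data known, so the counts are a description.

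Among families of 10 or more genes, Rbm and Hnrnp genes, which encode RNA-binding proteins of splicing and transport, had the largest share with a lower peak. Of 35 Rbm and Hnrnp genes, 24 had a lower peak (68.6%) and 6 a higher one, with 2.26 peaks per gene and 45.6% strong peaks. With peaks inside the named gene alone, it was 24 of 33. Hnrnpa3, a splicing repressor gene, had -6.68 (FDR 1.6e-63) and Rbm25 -6.13 and -5.15 in the authors' deposited table, all lower. SR protein and spliceosome genes had lower peaks in 15 of 28 and higher ones in 4, with 2.0 peaks per gene and 46.4% strong peaks. In the authors' deposited table Snrnp70, the U1 particle protein gene, had 3 lower peaks of -6.44, -3.58 and -2.91. Srsf11 had an internal exon peak of -5.96 and a first exon peak of 6.52 in the authors' deposited table. DEAD and DEAH box helicase genes had 13 lower and 1 higher of 29, CCCH zinc finger genes 7 and 1 of 20, and mRNA decay genes 15 and 5 of 37.

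Silencing and decay factors carried many of those peaks. Tnrc6c and Tnrc6b, scaffold genes of microRNA silencing, had lower peaks down to -6.75 and -5.03, and a higher one of 7.00 in Tnrc6b, in the authors' deposited table. Zc3h18, a gene of the nuclear exosome connection, had -9.0 and -7.89 in internal exons, both lower, by the authors' deposited table. The transcripts of Zfp36 and Zfp36l1, which encode proteins that bind AU-rich elements, were lower in the 5' UTR class, with -5.12 (FDR 1e-117) and -4.17 (FDR 4e-79) in the authors' deposited table. Of 8 genes of m6A or m6Am writers and their partners with a peak, 6 had a lower and 0 a higher peak. That is 75% against 26.2% of all genes, with 2.75 peaks per gene and 59.1% strong peaks. The 6 were Cbll1, Pcif1, Rbm15, Rbm15b, Virma and Zc3h13, while the peaks of Mettl16 and Wtap did not pass. Pcif1, the cap m6Am writer gene, was among these 6 with -3.05 in its 3' UTR class (FDR 0.033 in the authors' deposited table). Reader and eraser genes had 5 lower and 1 higher of 10, with 1.7 peaks per gene and 52.9% strong peaks. Among the lower ones Fmr1 had -5.15 in the authors' deposited table.

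Chromatin genes followed. Histone methyltransferase genes had 15 lower and 6 higher of 25, with 3.48 peaks per gene and 40.2% strong peaks. Demethylase genes had 9 and 3 of 16, with 2.38 peaks per gene and 26.3% strong peaks. Remodelling and bromodomain genes had 25 lower (55.6%) and 2 higher of 45, with 3.02 peaks per gene and 39% strong peaks. Chd2 had 4 lower peaks between -6.49 and -5.48, and Chd1l 1 of -8.36, in the authors' deposited table. Nsd3 fell by 7.14 (FDR 2.5e-49 in the authors' deposited table). Deacetylase and corepressor genes had 4 lower and 3 higher of 14. Histone, Hmg and Anp32 genes had 9 and 4 of 21, and Mediator, RNA polymerase II and elongation genes 17 and 5 of 42. Med13 showed both signs in its 3' UTR class, -7.86 and 8.41 in the authors' deposited table. The higher Med13 peak was weak (log10 peak p -7.31). An unrelated peak named Mir378b had the same 8.41 and the same FDR (5.6e-08 in the authors' deposited table).

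Transcription factor families were unequal. Immediate early and AP-1 genes had 16 lower (59.3%) and 3 higher of 27, with 2.63 peaks per gene and 46.5% strong peaks. In the authors' deposited table Nr4a3, an orphan receptor gene induced by receptor signals, fell by 5.23 (FDR 0.029), while Fosl2 had a lower peak of -4.31 (fold enrichment 222) and a higher one of 7.05. Ets and Runx genes had 6 lower and 4 higher of 15, T lineage factors 8 and 5 of 25, Zbtb genes 7 and 3 of 28, and Klf and Sp genes 3 and 1 of 12. Bcl11b, a T lineage commitment gene, had 4 lower peaks, from -6.02 at the 5' end to -1.85, in the authors' deposited table. Sox4 had -4.60 in the 5' UTR class, -2.45 and -2.38 at one 3' place on both strands, and a higher peak of 1.32, by the authors' deposited table. Ikzf3, which encodes Aiolos, fell by 4.81 over 1200 nt (fold enrichment 102), and Zbtb7b, which encodes ThPOK, fell by 5.19, in the authors' deposited table. Zfp zinc finger genes, with 29 lower and 13 higher of 144, lay below the share of all genes despite 2.16 peaks per gene. Interferon response genes had 9 and 5 of 28. The lower ones included Irf2bp2 and Irf3 with 2 lower peaks each, and the higher ones Oas2 at 8.83 and Oas3 at 6.63 and 2.81 in the authors' deposited table.

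Among signalling, surface and cytoskeletal families the share with a lower peak ranged from 25% to 51.2%. Cytokine receptor, JAK, STAT, SOCS and Smad genes had 22 lower and 4 higher of 43. Phosphoinositide kinase, Akt and mTOR genes had 14 and 7 of 32, Notch pathway genes 5 and 1 of 14, MAP kinase cascade genes 10 and 3 of 32, and NF-kappaB and TNF receptor genes 10 and 2 of 31. Tnfaip3, which encodes the NF-kappaB inhibitor A20, had lower peaks of -4.25 (FDR 1e-309, fold enrichment 171, chr10:19004378-19005187 of mm10), -2.81 and -1.02 in the authors' deposited table. Notch1 had -3.71 in its last exon, and -3.17 and -3.16 at one 3' place on both strands, all lower by the authors' deposited table. Map4k4 had -5.83 (FDR 1e-299) and -5.12 in internal exons and 6.16 at one 3' place in the authors' deposited table, all passing. Ser/Thr phosphatase genes had 17 lower and 7 higher of 42, and tyrosine and dual-specificity phosphatase genes 7 and 1 of 28. Genes with Cd symbols had 10 and 2 of 37. Motor and tubulin genes had 15 and 5 of 48.

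Genes of protein turnover, transport, metabolism and the cell cycle ranged from 16.9% (Tmem genes) to 40% (ubiquitin-conjugating and SUMO genes) in the share with a lower peak. Ubiquitin-conjugating and SUMO genes had 10 lower and 0 higher of 25, deubiquitinase genes 9 and 2 of 27, ubiquitin ligase genes 35 and 8 of 112, proteasome genes 6 and 2 of 23, and chaperone genes 13 and 5 of 33. Lower peaks in the 3' UTR class of proteasome genes included Psmd7 at -6.62, Psmd4 at -6.59 and Psma4 at -6.07, by the authors' deposited table. Vesicle trafficking genes had 30 lower and 15 higher of 119, solute carrier genes 32 and 12 of 133, Tmem genes 11 and 3 of 65, and nuclear pore and transport genes 6 and 4 of 26. Glycolysis genes had 3 and 1 of 11, and Slc2a1, the glucose transporter GLUT1 gene, fell by 4.88 in the authors' deposited table (FDR 6.3e-17). Bcl2 family and caspase genes had 3 and 2 of 16, with Bbc3, the PUMA gene, at -4.58 and Mcl1, a survival gene, at 4.46 in the authors' deposited table. Cyclin, Cdk and E2f genes had 11 and 2 of 46, and replication and DNA repair genes 8 and 2 of 42.

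Autophagy and respiratory chain genes were, with the ribosomal protein genes, the families with the smallest shares with a lower peak. Autophagy genes had 1 lower and 0 higher of 14, with 1.29 peaks per gene and 0% strong peaks, and the 1 lower peak, named Gabarap, lies in Ctdnep1. Respiratory chain genes had 4 and 3 of 28, with 1.21 peaks per gene and 14.7% strong peaks. Non-coding, predicted and unnamed genes had 61 and 27 of 396, and genes with small RNA names 47 and 22 of 193. Of those 193, 36 had a peak inside the named gene. Other genes of translation had shares with a lower peak between 26.1% and 31.2%. Mitochondrial ribosomal protein genes had 6 lower and 2 higher of 23, aminoacyl-tRNA synthetase genes 5 and 2 of 16, and translation factor genes 11 and 7 of 36.

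Cytosolic ribosomal protein genes were the only one of the 50 families with more genes carrying a higher than a lower peak. Of 26 genes with a peak, 15 (57.7%) had a higher one, against 9.64% of all genes, and 3 (11.5%) a lower one. They had 1.5 peaks per gene and 23.1% strong peaks, against 1.85 and 23.5% over all genes. Within the named gene the counts were 15 and 2 of 23. Most higher peaks lay at the front of the transcript. Of 21 ribosomal protein peaks in the 5' UTR or first exon class 12 were higher and 0 lower, and over all genes 7.59% of such peaks were higher and 13.8% lower. Of the 18 elsewhere, 3 were higher and 3 lower.

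Both subunits of the ribosome were represented. Rps4x rose by 10.1 (FDR 1.3e-15), Rps6 by 9.87 (FDR 7.9e-29) and Rpl34 by 9.57 (FDR 2e-39) in the authors' deposited table. Rpl13a rose by 6.75, Rpl9 by 6.34, Rpl21 by 5.99 and Rps15 by 4.69 in the authors' deposited table. Of the higher ribosomal protein peaks, only those of Rps4x and Rpl9 were weak (log10 peak p -6.37 and -7.11 in the authors' deposited table). Rps14 rose by 4.53 over 236 nt with a fold enrichment of 22.9 in the authors' deposited table. The other 7 were Rps20 (4.16), Rps15a (3.66), Rplp1 (3.26), Rps2 (3.19), Rps29 (1.68), Rpl5 (1.5) and Rplp2 (1.03) in the authors' deposited table. The 3 with a lower peak were Rpl41 (-1.60) and Rpl22 (-1.48), both in the 3' UTR class, and a peak named Rpl27 that lies in Rundc1 (-4.80) in the authors' deposited table. Many of the higher peaks were short. With peaks of at least 100 nt alone, 9 genes had a higher peak in place of 15. Ribosomal protein genes have many processed pseudogenes, so reads could be split between copies. Among translation factors Eef1a1 rose by 11.3 at its 5' end and Eif5b fell by 4.98 (FDR 1e-177) in the authors' deposited table.

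**Figure D5:**
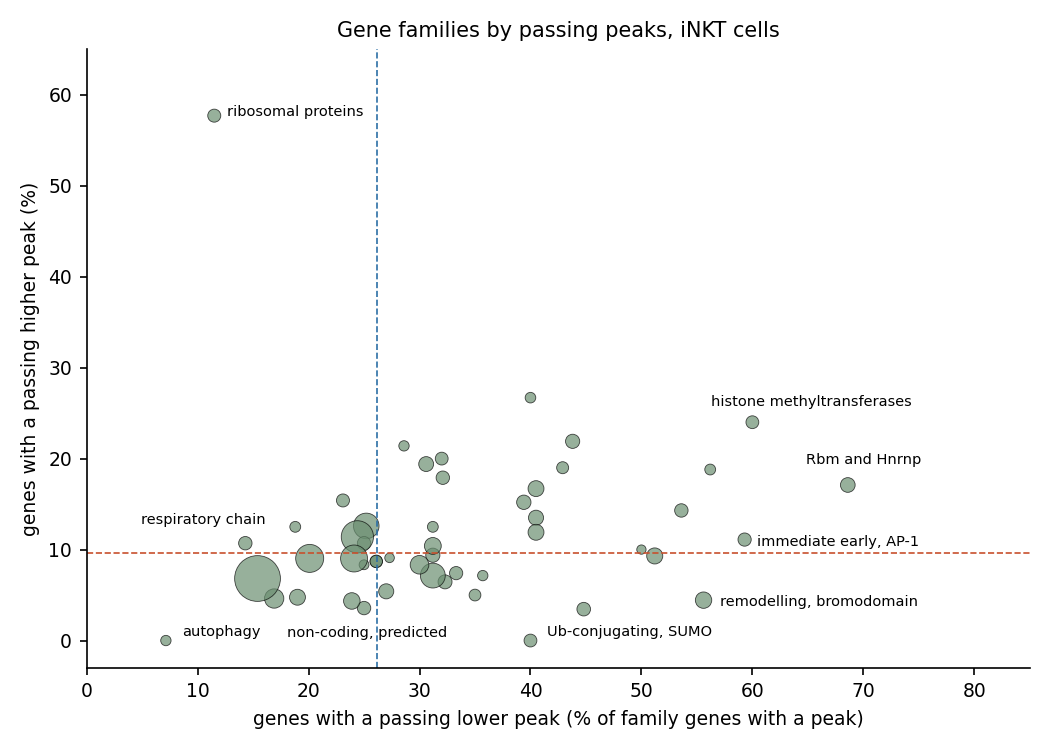
Percentage of genes with a passing higher peak (y axis) against the percentage with a passing lower peak (x axis) for 50 gene families, with point area growing with the number of genes with a peak (10 to 396). Dashed lines give all genes, 26.2% lower and 9.64% higher. Ribosomal protein genes stand apart at 11.5% and 57.7%, and Rbm and Hnrnp genes are farthest right at 68.6%.

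Peaks named after the ribosomal RNA precursor, and a few peaks on the mitochondrial genome, were also higher more often than lower. Of 11 peaks named Rn45s, the ribosomal RNA precursor, 10 rose and 1 had 0.18 (FDR 0.76) in the authors' deposited table. Those that rose lay between 1.46 and 7.43 in the authors' deposited table, with fold enrichments of 1.40 to 73.1. Several of these 11 entries overlap each other, which leaves 8 sites on the same strand and 7 on either strand, and the gene has many copies. On the mitochondrial genome, which the authors' annotation leaves unnamed, 3 of 9 peaks were higher and 1 lower. Over all peaks 5.84% were higher and 19.8% lower, and 9 peaks are too few for a general statement. By RefSeq position the higher ones lie in mt-Rnr1, the small ribosomal RNA (3.6, FDR 1e-161), CYTB, a complex III subunit gene (2.94, FDR 1e-139), and ND4, a complex I subunit gene (0.40, FDR 2.6e-05), in the authors' deposited table. The lower one spans ND2 and TrnW (-1.47, FDR 0.0065 in the authors' deposited table). These peaks were singled out after their values were seen.

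Marker genes of several cell types were looked up by name. Of 20 iNKT or T cell markers, 15 had a peak (14 within the gene itself), 8 with a lower and 3 with a higher one. Of all genes with a peak, 26.2% had a lower and 9.64% a higher one. Whether a marker has a peak does not measure its expression or the identity of the cells. Tbx21, which encodes T-bet, fell by 4.41 at its 3' end (chr11:97098311-97099090, minus strand, mm10) with an FDR of 9.1e-07, and Cd3d, a receptor chain gene, fell by 4.84 (FDR 1e-11) in the authors' deposited table. Egr2, a factor of early iNKT development, had -3.86 (FDR 0.065 in the authors' deposited table), and no peak of Cd44, Cd5, Klrb1c, Slamf1 or Slamf6 passed. Of 10 DP markers 4 had a peak, and Cd8a (-2.59), Cd8b1 (-1.41) and Rag1 (-3.87) were lower in the authors' deposited table. DP cells were to be gated out by the CD1d tetramer, and the share of DP RNA was not tested. Of other cell types, 3 of 6 B cell markers had a peak (Cd79b and Blk among them), none of which passed, and 1 of 5 NK markers (Klrk1), which did not pass either. Of 6 myeloid and 6 thymic epithelium markers 0 had a peak, and the 1 erythroid name, Alas2, came from peaks that lie in Apex2.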

How the data were processed

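RNA from sorted iNKT thymocytes, 3 input and 3 immunoprecipitated libraries per genotype, underlies the table. The build was mm10, and HOMER 4.9.1, RSEM 1.3.0, STAR 2.6.0a, FastQC 0.11.5 and Trim Galore 0.6.5 are named, in no stated order, per the submitters' processing notes. For the peak caller, its settings and whether replicates were pooled, the answer is not given in the sources used here. Per the file headers, the authors' deposited table gives for each peak a p-value, a fold enrichment (a linear ratio of immunoprecipitate over input), a log2 fold change between genotypes, and log10 p-values and FDRs, used here as scores. Gene name and position class come from the authors, per the file headers. How far the authors' p-values take in variation between mice is not known. No count per library was used, so depth and its precision are unknown.

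From these values, peaks were counted by sign at an FDR of 0.05, by gene, position class, peak p-value, length, blocks, fold enrichment and 51 families of gene symbols, with Python 3.11.15, numpy 2.4.6, pandas 2.3.3 and matplotlib 3.10.9. Counting and overlap routines were tested on simulated data. No test was run on the counts, since peaks and genes share libraries. Strong peaks had a peak p-value at or below 1e-100 and weak peaks above 1e-10. RefSeq genes of GRCm38.p6 were matched to peaks on either strand by at least 1 shared base.

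Genes were named by rule: the 10 with most peaks; those with 3 or more passing peaks of 1 sign or both; per class the 3 lower and 3 higher peaks of smallest FDR; the 10 largest fold enrichments and the 8 strongest peaks under an absolute log2 fold change of 0.1; up to 4 members per family; the 8 widest gaps between UTR peaks; and markers. Some items are not reported here. The members and lists were chosen with earlier results of these data known. Chosen after values were seen were the bins, the named peaks of Fos, Irf2bp2 and Irf3, the mitochondrial and Rn45s peaks, the naming of the remaining ribosomal protein genes, and the search for letters near starts. So was a tighter ribosomal protein pattern that leaves out S6 kinase, pseudogene and binding-protein symbols; a family of mitochondrial symbols was dropped because no peak carries one. The search near starts had 4 readings and 18 shares of peak sets. GGACT alone gave 9.23%, 5.13% and 4.4% for lower, higher and other peaks (5.76% of all starts), a first base A 29.2%, 17.9% and 27.5% (34.4%), and an opening C followed by 4 or more pyrimidines 0%, 2.56% and 2.33% (2.51%).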

Additional observations from a re-analysis of the deposited data

How the results depend on the processing

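Over 8 alternatives (FDR 0.01, at least 2-fold change, fold enrichment of 2 or more, repeated rows kept, at least 100 nt, peaks within the named gene, and overlapping peaks joined on 1 or either strand, the joins chosen after seeing the data), 142 of 144 values of 18 results stayed within 1.5 times of the reported count, or on the same side of 50%. Lower peaks numbered 1963 to 2491 and higher peaks 572 to 733. Genes with 2 or more passing peaks numbered 480 to 623, and those with both signs 132 to 166. Exceptions were ribosomal protein genes with a higher peak, 9 in place of 15 with peaks of at least 100 nt (a change that drops short peaks by construction), and chromatin remodelling genes with a higher peak, 1 in place of 2 at an FDR of 0.01. No paired analysis was possible because the table holds no value per library, and for the same reason no replicate could be left out. Depth, and so the smallest change that could have passed, is unknown.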

Other observations

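Fold enrichments in the authors' deposited table repeat. The value 31.3 occurs for 281 peaks, 7.83 for 189, 47.0 for 177 and 39.2 for 156. Of 2386 peaks with a fold enrichment of 30 or more, 916 (38.4%) lay within 0.06 of a whole multiple of 7.835. That step was the best of 401 scanned, chosen after the repeats were seen, and the median over the steps was 0.922%. Of these 916 peaks, 14 were lower. Log2 fold changes were whole numbers in 1016 peaks, 854 of them weak, and exactly 0 in 283, and of the 1016, 32 were lower and 14 higher. What makes these values repeat was not tested.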
